A study of Mus musculus with 80 samples.

Results

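RXR binding was compared in the livers of wildtype mice fed either a high-fat diet (HFD) or a control diet, neither with the drug pioglitazone (Pio). The comparison takes 10 chromatin immunoprecipitation (ChIP) libraries out of the 40 ChIP libraries and 80 samples of the series, 5 livers titled HFD_Diet_RXR_WT and 5 titled Control_Diet_RXR_WT, chosen by diet, genotype and drug and not by any measured value. All were male C57BL6/J mice with an unmodified PPARγ gene, aged 5 months after 12 weeks on diet, and every library was 1 whole liver precipitated with an antibody to RXR and called against its own input. The series also holds 10 wildtype livers treated with Pio and 20 livers of mice in which Alb-Cre, active in hepatocytes, removed loxP-flanked PPARγ (KO), and these are used here only to look up the same sites. Peaks on chromosomes 1 to 19, X and Y numbered 31464, and merging the overlapping ones gave 28999 sites.

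RXR (retinoid X receptor) is the shared partner of many nuclear receptors. It pairs with PPARs, LXR, FXR, RAR, CAR, PXR and the thyroid hormone receptor, and the pairs bind direct repeats of the hexamer AGGTCA whose spacing differs between partners, the spacing of a single base (DR1) being that of PPAR and RXR. In liver these pairs control fatty acid oxidation, bile acid and cholesterol handling and lipid synthesis. A peak in a ChIP library is a stretch of DNA that holds more sequenced tags than the input gives there, and fold enrichment is the ratio of the 2 at the summit.

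Few sites recurred. Of the 28999 sites, 27330 (94.2%) were called in a single library, 1387 in 2, 282 in at least 3, 60 in at least 5 and 8 in all 10. The 60 sites called in at least 5 libraries fell into 4 kinds by what lay within 100 bases of the strongest summit. At 16 sites at least 3 copies of the pentamer GGAAT followed each other on either strand, 11 lay in another tandem repeat, 12 carried a pileup above 100 tags in at least 1 library, and 21 met none of these criteria. The grouping was made after the sequences had been seen. The following stretches, read from GRCm38 (mm10) on the plus strand, show the repeats.

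The pentamer sites are shown because they include the strongest site of the comparison and 3 of the 8 sites called in every library. Capitals mark runs of at least 3 pentamers.
chr17:4626336-4626436, outside genes: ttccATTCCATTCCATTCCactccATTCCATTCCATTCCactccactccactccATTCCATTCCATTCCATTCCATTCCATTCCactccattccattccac
chr1:12644759-12644859, outside genes: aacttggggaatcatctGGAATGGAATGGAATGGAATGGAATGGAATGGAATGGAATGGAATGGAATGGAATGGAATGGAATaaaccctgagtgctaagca
chr17:56199968-56200068, intron of Dpp9: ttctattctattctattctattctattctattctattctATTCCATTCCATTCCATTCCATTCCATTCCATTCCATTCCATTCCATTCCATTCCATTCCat
chr6:132463702-132463802, outside genes: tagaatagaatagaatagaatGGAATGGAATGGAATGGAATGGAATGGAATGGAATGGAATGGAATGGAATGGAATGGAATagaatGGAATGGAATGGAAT

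The repeats with a longer unit are shown because they hold the strongest sites near named genes. Capitals mark 1 period of the repeat, counted from the summit.
chr5:140204146-140204246, intron of Mad1l1: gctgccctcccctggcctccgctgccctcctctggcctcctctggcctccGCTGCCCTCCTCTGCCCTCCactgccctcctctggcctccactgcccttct
chr2:25628811-25628911, upstream of Fcna: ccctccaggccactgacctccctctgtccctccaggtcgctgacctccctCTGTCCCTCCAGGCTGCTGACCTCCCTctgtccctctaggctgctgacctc
chr11:60795853-60795953, intron of Shmt1: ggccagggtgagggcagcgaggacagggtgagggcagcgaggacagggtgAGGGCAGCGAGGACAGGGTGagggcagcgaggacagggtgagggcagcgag

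The strongest site lay outside genes on chromosome 17 (4625941 to 4626823), 368 kb upstream of the nearest protein-coding start, that of Arid1b, which encodes a subunit of the SWI/SNF chromatin remodelling complex. Its fold enrichment was 29.7, 6.63, 23.0, 16.7 and 42.5 in Control livers 1 to 5 and 5.42, 5.57, 13.1, 11.1 and 10.9 in HFD livers 1 to 5. Control liver 2 lay among the HFD livers and the other Control livers lay above all of them. The difference, HFD minus Control, was -1.28 on the log2 scale (SE 0.617) after each library was centred on its own median, with an adjusted p of 0.281 in limma.

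The site on chromosome 1 (12644530 to 12645090) lay 47.5 kb upstream of Sulf1, a sulfatase that edits heparan sulfate. Fold enrichment there was 18.1, 5.22, 7.93, 5.82 and 11.3 in the Control livers and 5.71, 5.57, 7.60, 7.21 and 5.47 in the HFD livers, so the HFD values lay inside the Control range. In an intron of Dpp9 (chromosome 17, 56199770 to 56200333), a gene for a dipeptidyl peptidase, the values were 14.5, 4.498, 7.32, 10.2 and 11.3 in Control and 4.07, 5.55, 5.96, 6.55 and 6.84 in HFD livers. Again Control liver 2 was the only Control liver among the HFD values. The pentamer site on chromosome 6 (132463470 to 132464053), 99.6 kb upstream of Gm8882, was called in 5 Control livers, at 23.3, 5.22, 10.4, 2.87 and 8.64, and in 4 HFD livers, at 6.96, 6.91, 6.55 and 5.37, with no peak in HFD liver 1.

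At the sites in longer repeats the values of the diets also overlapped. In an intron of Mad1l1 (chromosome 5, 140203960 to 140204460), a gene of the spindle checkpoint, fold enrichment was 16.1, 20.1, 7.32 and 15.2 in Control livers 1 to 4 and 16.9, 4.003, 8.44, 3.51 and 11.8 in HFD livers 1 to 5, with no peak in Control liver 5. The repeat there reached 79.6% identity at a period of 20 bases, just under the 80% asked of a tandem repeat. Upstream of Fcna (chromosome 2, 25628600 to 25629095), which encodes ficolin A, a lectin of the complement system made in liver, a peak 0.831 kb from the start reached 12.9965, 14.2, 6.71 and 4.23 in Control livers 1 to 4 and 15.6, 6.02, 11.1, 3.28 and 17.1 in the HFD livers. The groups overlapped at both sites. In an intron of Shmt1 (chromosome 11, 60795690 to 60796142), a serine hydroxymethyltransferase of the folate cycle, 0.906 kb from the nearest start, 3 Control livers had values of 17.6, 8.95 and 6.55 and 4 HFD livers had 10.2, 6.91, 5.90 and 6.17. Over the livers with a peak, geometric means in Control and HFD were 13.8 and 7.49 at Mad1l1 and 10.1 and 7.11 at Shmt1. Upstream of Fcna they were 8.50 and 8.97.

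Among the remaining sites called in at least 9 libraries, the Y chromosome held a site 39.6 kb from Gm28102, at 2.85 to 7.90 in 4 Control livers and 3.63 to 7.93 in 5 HFD livers, and a site 217 kb from Gm33815, at 2.68 to 4.78 and 2.20 to 2.75. The 49 bases at the first of these summits occurred 5384 times in the assembly and those at the second 84 times, so a tag there cannot be placed with certainty. The same limit holds at the Sulf1, Gm8882, Dpp9 and Shmt1 summits, with 43, 44, 6 and 4 copies. The summits near Arid1b, in Mad1l1 and upstream of Fcna had 1 copy each. Of the 16 pentamer sites 9 had 1 copy. The sites in Gm21738 (chromosome 14), Gm11168 and near Gm10715 (chromosome 9) and in Gm10801 (chromosome 2) belonged to the kind with high pileup. Fold enrichment at the 12 sites of that kind averaged between 1.41 and 2.13 although the pileup reached 164 to 541 tags, which places the local input high as well. Their sequence matched itself best at a shift of 58 or 59 bases, near the spacing of the sub-repeats in mouse major satellite DNA. The identity at that shift was 76.9% in Mdga2 and only 40.8% in Gm10801 (from 98662118). The shift did not set this kind apart. Sites 33.7 kb from Sfi1, 76.4 kb from Vmn1r2 and 392 kb from Nbea, of the kind with no tandem repeat, also matched best at 59 bases. Their pileups reached 56, 75 and 95 tags.

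**Figure D1:**
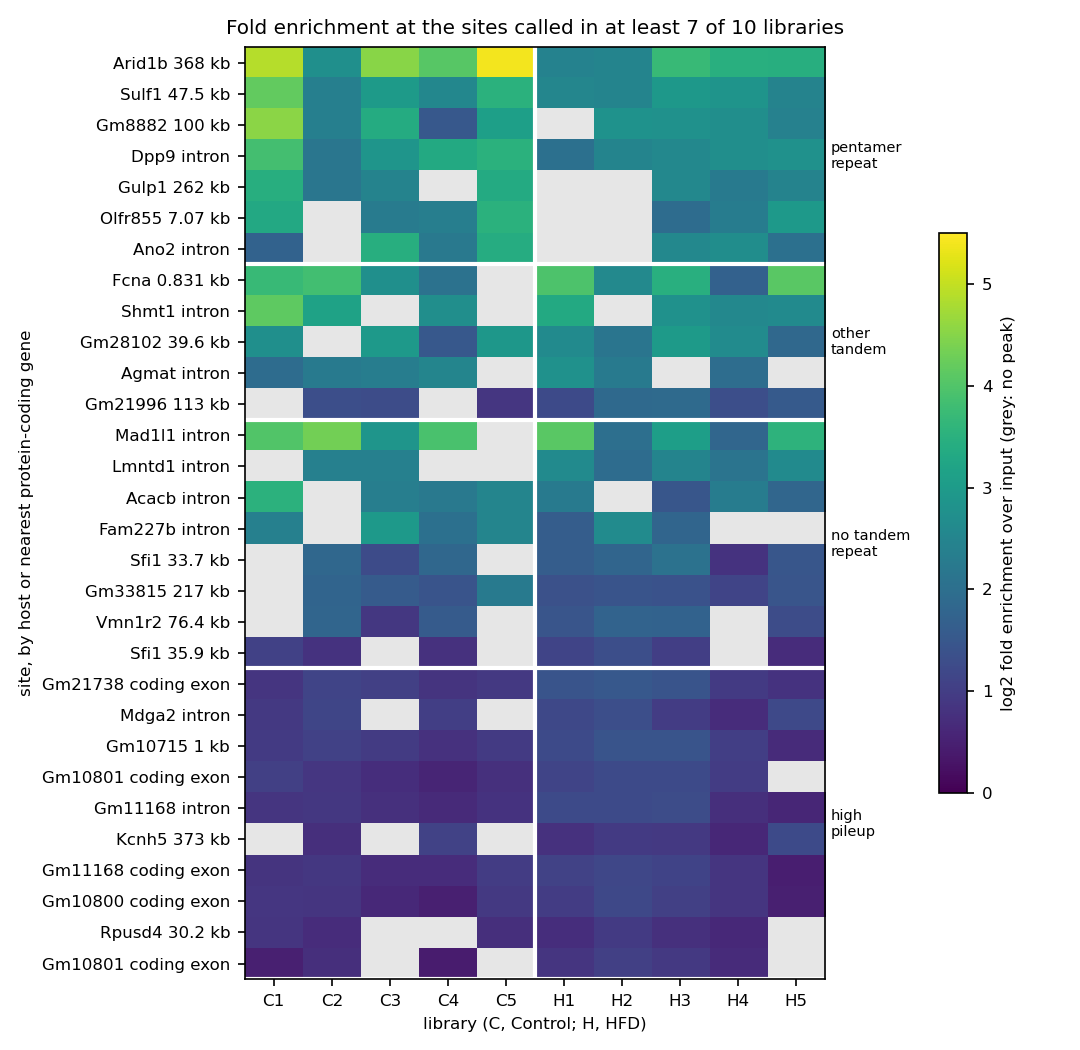
Rows are the 30 sites called in at least 7 of 10 libraries, named by host gene or nearest protein-coding gene with its distance, and columns are the 10 livers; colour is log2 fold enrichment over input and grey marks no peak. The top row, with fold enrichment of 42.5 in Control liver 5, is the brightest and the high-pileup rows stay dark in every liver.

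No pentamer site was called in more HFD than Control livers. Of the 16 pentamer sites among the 60, 13 were called in more Control than HFD livers, 3 in equal numbers and 0 in more HFD livers. For the 11 other tandem repeats the counts were 6, 0 and 5, for the 21 sites with no tandem repeat 5, 3 and 13, and for the 12 high-pileup sites 1, 5 and 6, in the same order. Counted over whole libraries, peaks with a pentamer run numbered 25, 6, 23, 17 and 25 in the Control livers and 3, 11, 13, 9 and 8 in the HFD livers. The means were 19.2 ± 8.07 (SD, n = 5) and 8.80 ± 3.77 (SD, n = 5), and an exact two-sided permutation test of this count, which was chosen after its values had been seen, gave p = 0.0476 and an adjusted p of 0.131. Control liver 2 was again low. Without it the difference was -13.7 peaks and the adjusted p from the exact permutation test was 0.0437. Leaving out each of the 10 livers in turn gave differences of -13.7 to -8.95, and only this 1 passed the threshold. Both the measure and the liver were picked from these values, so that p is no independent test of a difference.

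**Figure D2:**
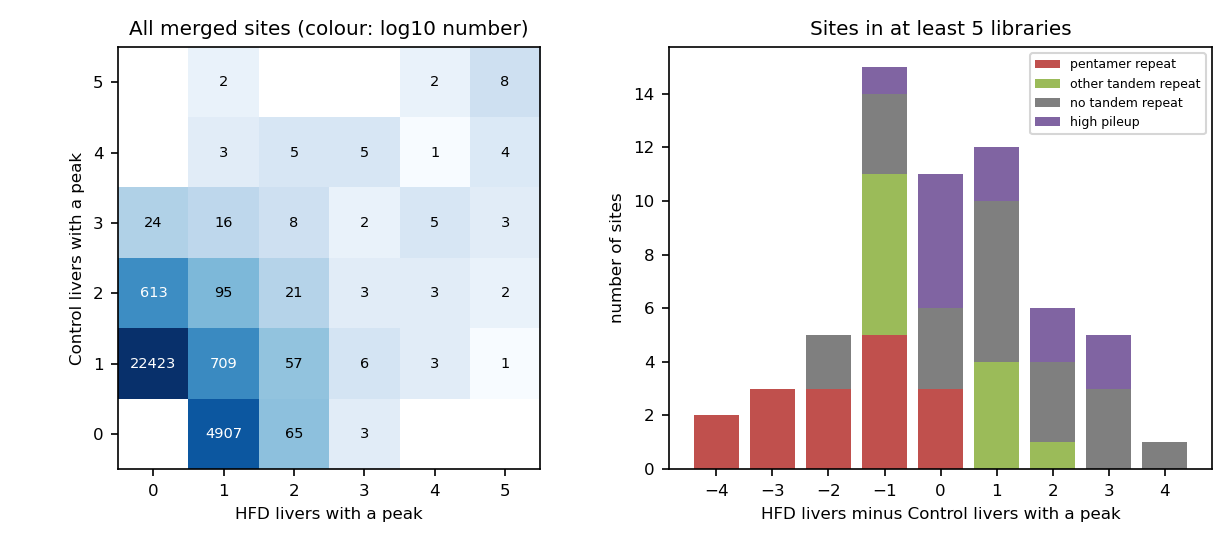
The left panel counts all 28999 merged sites by the number of HFD livers (x axis) and Control livers (y axis) with a peak; 22423 sites were called in 1 Control liver alone and 4907 in 1 HFD liver alone. The right panel shows the 60 sites called in at least 5 libraries by the difference in livers called, stacked by kind; no pentamer site lies to the right of 0.

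The same sites were looked up in the 30 livers of the other groups. All 16 pentamer sites had a peak in KO livers, in a median of 19 of 20, and 13 of them in at least 15. None of the 11 other tandem repeats had a peak in any KO liver, whereas 10 of these 11 had at least 1 in the 10 wildtype livers on Pio. Of the 21 sites with no tandem repeat 18 had no peak in KO livers. The other 3, in introns of Acacb, Fam227b and Plxdc2, were called in 20 of 20 KO livers. The ratio at the strongest site averaged 20.01 in Control and 8.65 in HFD wildtype livers (geometric means). In KO livers it averaged 76.6 on control diet, 49.9 on HFD, 31.1 on control diet with Pio and 22.8 on HFD with Pio. KO libraries held 627698 to 1057899 tags against 2147242 to 4255942 in the 10 libraries described. Estimated fragment lengths were 119 to 168 bases in KO libraries, 45 to 263 in wildtype libraries on Pio and 183 to 292 in these 10. The cutoff for calling peaks also differed in the other groups. The part of depth, fragment length and cutoff in these differences was not tested.

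**Figure D3:**
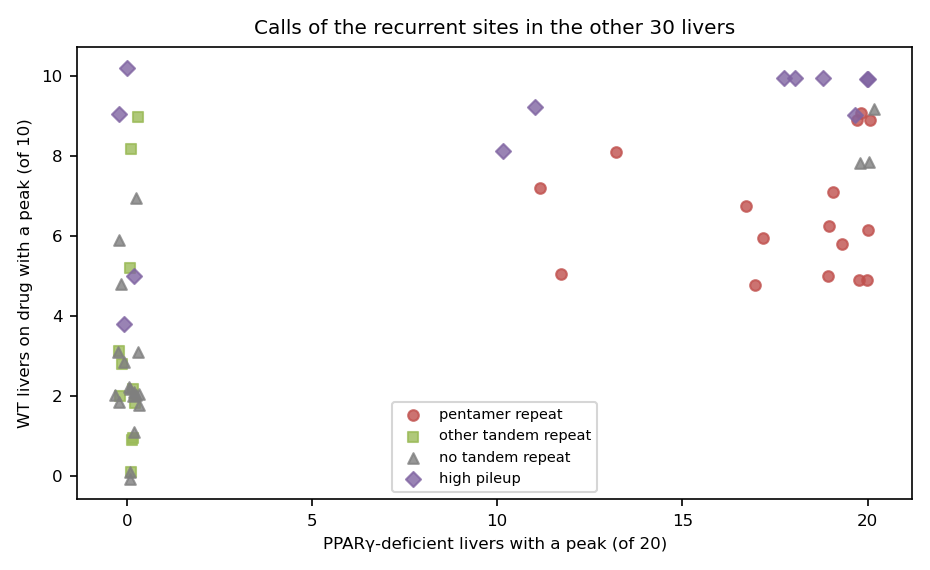
Each point is 1 of the 60 sites called in at least 5 of the 10 libraries, placed by the number of KO livers (x axis, of 20) and of wildtype livers on Pio (y axis, of 10) with a peak there, shifted slightly at random so that points do not hide each other. Pentamer sites lie between 11 and 20 KO livers, and the other tandem repeats all lie at 0.

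A 9-base stretch, AGGCTGAGG on either strand, of the Alu family of dispersed repeats, which belongs to primate genomes and is related to the B1 repeats of the mouse, lay within 100 bases of the summit at 8 of the 282 sites called in at least 3 libraries. Those in introns of Acacb, Fam227b, Lipc, Izumo1 and Ybx3 were called in 20 of 20 KO livers, that in Auts2 in 18, and those nearest Tspan12 and Sipa1l3 in 0. For comparison, all 22 pentamer sites among the 282 had a peak in at least 1 KO liver, and of the 237 sites with neither sequence and no high pileup 10 (4.22%) did. The 9 bases were found at 2.84% of the 282 sites and in 1.77% of their windows moved by 5000 bases. Over all 28999 sites they were found at 0.331%, and in moved windows at 0.648%. Acacb encodes the acetyl-CoA carboxylase whose malonyl-CoA restrains mitochondrial fatty acid oxidation, and its intronic site (chromosome 5, 114172870 to 114173408) lay 2.81 kb from the nearest start. Fold enrichment there was 11.6, 5.14, 4.66 and 5.63 in Control livers 1, 3, 4 and 5 and 4.74, 2.78, 4.95 and 3.51 in HFD livers 1, 3, 4 and 5. No peak was called in liver 2 of either group. In KO livers the geometric mean at this Acacb site was 34.2 on control diet, 35.3 on HFD, 20.5 on control diet with Pio and 19.9 on HFD with Pio. Only peak lists were used and not the reads, so whether the tags at the pentamer and Alu-like sites, the strongest site and that in Acacb included, came from mouse DNA alone was not tested, and their fold enrichment is not shown to be RXR binding.

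Sequence content differed with recurrence. A tandem repeat lay at the summit of 5.93% of sites called in 1 library, 12.0% of those in 2, 22.5% of those in 3 or 4 and 30% of those in at least 5, against 0.443%, 0.937%, 0% and 1.67% in windows 5000 bases away. The pentamer run was found at 0.0146% of sites in 1 library and 26.7% of sites in at least 5, and in 0% of moved windows. For the direct repeat of the PPAR and RXR pair, summits held fewer matches than moved windows. A DR1 match with at most 2 mismatches, searched on both strands as AGGTCA, any base and AGGTCA again, lay within 100 bases of 1.76% of all summits and 2.60% of moved windows, and of 1 of the 60 recurrent summits, in an intron of Agmat. Direct repeats with spacers of 0, 2, 3, 4 and 5 bases were found at 1.28%, 1.03%, 0.921%, 1.09% and 0.921% of all summits and at 2.71%, 2.41%, 2.03%, 1.88% and 1.88% of moved windows. A match describes letters only and an absent match says nothing of binding by the factor.

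**Figure D4:**
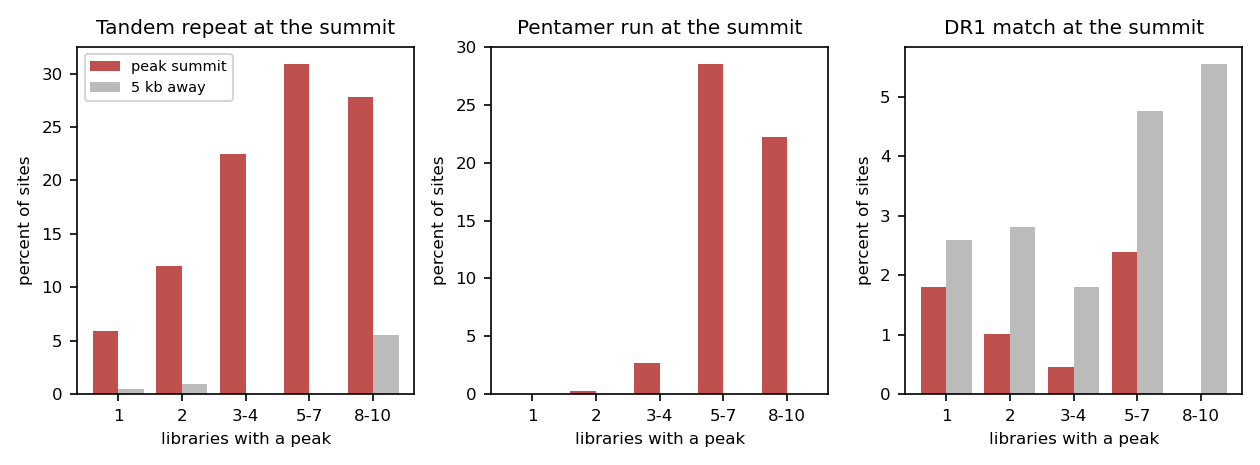
Bars give the percent of sites with a tandem repeat, a pentamer run or a DR1 match within 100 bases of the summit (red) and in windows 5000 bases away (grey), by the number of libraries with a peak (x axis). The red bars for the tandem repeat rise from 5.93% to 30.95% at 5 to 7 libraries, while the DR1 bars stay under the grey ones in every class.

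The spread between libraries was wide. The 10 ChIP libraries kept 2147242 to 4255942 tags after duplicates were dropped, and the Control livers gave 1036, 12919, 2032, 7083 and 2074 peaks and the HFD livers 1543, 1108, 1902, 579 and 1188. HFD liver 4 had the most tags and the fewest peaks. The median peak rested on a pileup of 4 to 6 tags in every library, and peaks with a q-value of at most 0.05 made up 8.197% to 88.8% of a Control library and 41.7% to 61.1% of an HFD library. In log2 number of peaks the HFD livers had a difference of -1.496 from the Control livers (10.2 ± 0.649 against 11.7 ± 1.49, SD, n = 5 each, exact permutation p = 0.0794, adjusted p = 0.190). In log2 covered bases the difference was -1.35 (exact permutation p = 0.0952, adjusted p = 0.190). Neither passed the threshold, and without Control liver 1 both did, at -1.92 and -1.83 with an exact permutation adjusted p of 0.0212 each.

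The share of peaks seen in another of the 10 libraries was 20.5%, 17.9%, 18.98%, 23.8% and 33.7% in HFD livers 1 to 5 and 13.9%, 10.2%, 14.8%, 11.9% and 5.93% in Control livers 1 to 5. The groups did not overlap, and the difference of 11.6 percentage points had an exact permutation p of 0.00794, the smallest that 5 against 5 allows, and an adjusted p of 0.0635. The measure counts a match to a library of either diet, and the longest list, that of Control liver 2, cannot match itself. As a share of the shorter list, each HFD liver shared 11.8% to 22.6% of its sites with Control liver 2. Pairs of HFD livers shared 3.62% to 7.83%. With all lists cut to 579 peaks the difference was -2.18 points. Peaks outside genes were 58.9% ± 1.66 of HFD and 55.8% ± 2.70 of Control peaks (SD, n = 5 each, exact permutation p = 0.0238, adjusted p = 0.0952). Peaks within 1000 bases of a start were 3.55% and 4.23%, the median fold enrichment was 4.08 and 3.90, and DR1 matches 1.73% and 1.76%, with exact permutation adjusted p of 0.582, 0.582 and 0.913. The share of peaks with a q-value of at most 0.05 was 47.7% in HFD and 38.4% in Control livers (exact permutation adjusted p = 0.644). Tandem repeats, a measure chosen later, held 8.31% of HFD and 4.71% of Control peaks (exact permutation p = 0.0397, adjusted p = 0.131). Each library was of whole liver, so a change in cell make-up and a change in binding per cell cannot be told apart.

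**Figure D5:**
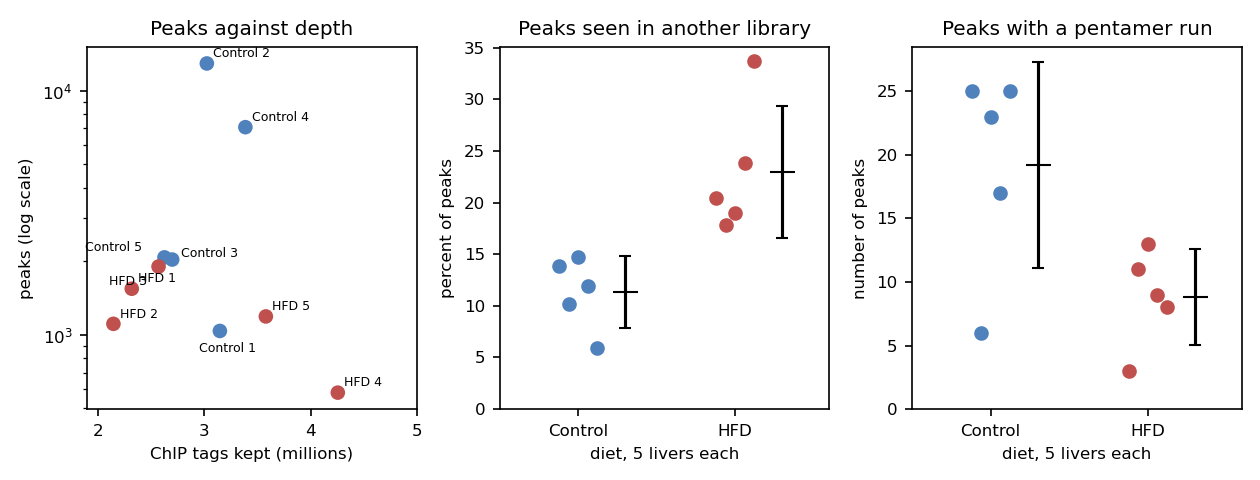
The left panel plots peaks (log scale) against ChIP tags kept for each of the 10 livers, and the other panels give for each liver the percent of peaks seen in another library and the number of peaks with a pentamer run, with mean and SD as bars (n = 5). Control liver 2 has 12919 peaks but 6 with a pentamer run, and the HFD livers lie above all Control livers in the middle panel.

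Pairs of livers shared little of their sites whatever the diet. As a share of the shorter list, the median was 5.13% over 10 pairs of HFD livers, 4.69% over 10 pairs of Control livers and 4% over 25 pairs across diets. Across diets the highest share, 22.6%, joined HFD liver 5 to Control liver 2, the longest list. Sites called in at least 3 livers of a diet numbered 51 for HFD and 88 for Control, and 30 were in both lists, 58.8% of the HFD list and 34.1% of the Control list. Both diets together held 964 sites called in at least 1 liver of each.

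Sites called in at least 3 livers of a diet and in none of the other were few. Against the 282 sites called in at least 3 libraries, 3 (1.06%) were gained on HFD and 24 (8.51%) were lost, each in 3 livers against 0. The gained sites lay in introns. Those of Cdk5rap2 (chromosome 4, 70377955 to 70378424), a centrosomal gene, and 2210408I21Rik (chromosome 13, 77438736 to 77439213) were called in HFD livers 1, 2 and 3, at 4.05, 1.58 and 2.84 and at 2.56, 1.78 and 3.12, with pileups of up to 119 and 143 tags. The site in Gm21704 on the Y chromosome (3368313 to 3368808) was called in HFD livers 1, 4 and 5 at 3.59, 4.29 and 5.61. The site in Cdk5rap2 was also called in 3 of 5 wildtype livers on control diet and Pio and 4 of 5 on HFD and Pio, and that in 2210408I21Rik in 4 and 4. The site in Gm21704 was called in none of these. At 4 livers against 0 no site was left in either direction.

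The 24 lost sites averaged between 3.31-fold and 6.73-fold over input in the livers where they were called. They were not spread evenly, since Control liver 3 held 21 of them, Control liver 4 held 19 and Control liver 5 held 7. The strongest lay in an intron of Btk on the X chromosome, 0.165 kb from a start, at 5.62, 7.17 and 7.56 in Control livers 2, 3 and 4; Btk encodes a kinase of B cells. In an intron of Lipc, the gene of hepatic lipase, the values were 7.65, 6.46 and 5.67 in Control livers 1, 3 and 5. This site was called in 20 of 20 KO livers, at a geometric mean of 23.6 in those on control diet and 9.21 in those on HFD and Pio. The next lost sites in order of strength were 54.6 kb from H2afb2, 217 kb from 1500009L16Rik, 46.8 kb from Dynlrb2, in introns of Izumo1 and Itpr2 and 6.82 kb from Prl3c1, with geometric means of 6.44, 5.58, 5.51, 5.38, 5.38 and 5.17. Among the 24, 6 lay in a tandem repeat, 4 had the pentamer run, and 8 had a peak in KO livers, 6 of them in at least 15. In wildtype livers on Pio, with either diet, 13 of the 24 had a peak.

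Fisher's exact test of livers called found no site past the threshold among all 28999 (0% called, smallest adjusted p = 1). The smallest p that 5 livers against 5 allow in this test is 0.00794, and 4604 sites would have had to reach it for any to pass, so the outcome says nothing about single sites. None of the sites split 5 against 0. At an unadjusted p of 0.0476 there were 3 sites. Those 969 kb from Trim52 and 198 kb from Gm17521 were called in 1 HFD and 5 Control livers, and both carried the pentamer run. The site 147 kb from Gm21860 on the Y chromosome was called in 5 HFD livers and 1 Control liver. The test of strength with limma, over the 8 sites called in every library, also found none (0% called), with 1 site at an unadjusted p below 0.05, the site on chromosome 17 described first. Taken as pileup scaled to library size instead of fold enrichment, 2 of the 8 passed, that site at -1.69 (adjusted p = 0.00239) and the Dpp9 site at -1.05 (adjusted p = 0.0485, limma), and all 8 differences were negative. Without Control liver 2 the fold enrichment gave 2 calls as well.

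Recurrent sites were few at genes of the receptors and their targets, and also at protein-coding genes as a whole. A site in at least 3 libraries, within the gene or 10 kb around it, was found for 3 of 126 genes on the lists (2.38%) and for 160 of 21911 protein-coding genes (0.730%); genes differ in length, and this was not corrected for. They were Acacb, Thrb and Fgf21. Thrb, a thyroid hormone receptor gene, had an intronic site called in Control livers 1 and 2 and HFD liver 1, at 3.06, 4.47 and 3.08. Fgf21, a hepatic hormone induced by PPARα, had the lost site in the neighbouring Izumo1, 8.22 kb from the gene, at 5.35, 5.02 and 5.79 in Control livers 1, 3 and 5. That site was called in 20 of 20 KO livers.

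Any site in at least 1 liver was counted as well. In HFD livers 10.7% of protein-coding genes held a site and in Control livers 33.1%. For LXR targets it was 1 and 9 of 15 genes, for FXR targets 3 and 5 of 14, for PPARα targets and fatty acid oxidation 2 and 8 of 25, for retinoic acid receptor targets 1 and 3 of 9 and for CAR and PXR targets 0 and 4 of 10. For thyroid hormone receptor targets it was 0 and 2 of 6, for nuclear receptors 5 and 6 of 20, and for cholesterol and fatty acid synthesis 3 and 5 of 20. Neighbouring genes could share a site. Among the LXR targets Abcg5 and Abcg8 shared their only site, and Apoe and Apoc1 shared their strongest. Single livers carried many of these counts. Without Control liver 2 the share of all protein-coding genes fell to 20.03%, and the Control counts became 3 for FXR targets, 1 for thyroid hormone receptor targets and 3 for synthesis. Without Control liver 4 they became 3 for FXR targets and 5 for PPARα targets, without Control liver 5 they became 5 for LXR targets, and without Control liver 3 they became 1 for thyroid hormone receptor targets. The HFD counts became 3 for nuclear receptors and 0 for retinoic acid receptor targets without HFD liver 1, 0 for PPARα targets without HFD liver 3, and 0 for LXR and 1 for FXR targets without HFD liver 5. Of 8 genes, Pparg and the PPARγ-regulated genes that the study took as examples, 3 held sites, 5 in all, each in 1 library. Pparg itself had 3 intronic sites, at 4.59 in Control liver 1 and at 4.498 and 4.47 in Control liver 2. Mogat1, which makes diacylglycerol, had one at 3.08 in HFD liver 1, and Plin4, a lipid droplet protein, had one 0.83 kb away at 4.47 in Control liver 2. Cav1, Cd36, Cfd, Cidec and Fabp4 had none in any of the 10 livers.

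Among marker genes of cell types, a site was found in HFD and in Control livers for 1 and 7 of 8 hepatocyte genes, 0 and 3 of 4 Kupffer cell genes, 2 and 2 of 4 stellate cell genes and 0 and 2 of 4 endothelial genes. The counts were 1 and 3 of 4 for cholangiocytes, 0 and 1 of 4 for adipocytes and 2 and 2 of 4 for lymphocytes. Over all protein-coding genes the shares were 10.7% in HFD and 33.1% in Control livers. One library held most of the hepatocyte genes. Control liver 5 had a site at 6 of the 8, the strongest at 19.1 in a coding exon of Alb, the serum albumin gene, and without that liver the count was 2. Exons held 6.17% of the peaks of that liver and 1.08% to 4.34% of those of the others. Without Control liver 2 the counts became 0 for cholangiocytes and 0 for lymphocytes, and without Control liver 4 they became 1 for stellate cells and 0 for adipocytes. The HFD counts of 1 became 0 without HFD liver 1, and those of 2 became 1 without HFD liver 1 or 2 for stellate cells and without HFD liver 3 or 5 for lymphocytes. Of these 32 genes Reln, a stellate cell gene, was the only gene with a site in 3 libraries. Over all protein-coding genes 0.730% had a site in at least 3 libraries, and gene length was not corrected for. Peak lists hold no expression, so the labelled tissue could not be checked by its markers.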

How the data were processed

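RXR ChIP and input libraries of mouse liver were processed by the authors, who aligned reads with Novoalign to mm10. Peaks were called per library against its own input with MACS2 2.1.1.20160309, keeping 1 tag per position. The cutoff was p 0.001 in the 10 libraries described and differed in the other groups. Per the file headers, q-values were not calculated, although the column holds them; they are used as deposited. The deposited files give for each summit the pileup (a signal, tags at the summit), −log10 p and −log10 q, and fold enrichment, the ratio to the local input. Depth is 2147242 to 4255942 kept tags a library, so a typical peak rests on few tags. The narrowPeak copies hold the same peaks and were not used.

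For each of the 10 libraries 1 row per interval was kept, that with the highest fold enrichment, on chromosomes 1 to 19, X and Y. Intervals overlapping by at least 1 base were merged. Summits on unplaced scaffolds (32 to 222 a library) were left out. Genes are those of GENCODE M21, sequence that of the RefSeq GRCm38.p6 assembly. A tandem repeat is a 201-base window that matches itself at 80% or more of its bases when shifted by 2 to 60 bases. Library measures were compared by exact two-sided permutation tests over all 252 assignments of 5 against 5 livers, adjusted by Benjamini-Hochberg over 8 measures, or over 11 with the 3 added later (tandem repeats, GC content, pentamer runs). Livers called were compared by Fisher's exact test per site, and log2 fold enrichment by limma 3.58.1 in R 4.3.3, with calls at an adjusted p below 0.05 and at least 2-fold. Scripts were tested on simulated data. Some site sequences are not reported here. Leaving livers out of the gene counts was added after the data had been seen. The members and lists were chosen with earlier results of these data known. Sites named are those called in at least 9 libraries (at most 12, in order of fold enrichment), up to 5 gained and 8 lost, the 3 strongest of each diet, and those with an unadjusted limma p below 0.05. Genes named are list members within 10 kb of a site in at least 3 libraries and the 8 PPARγ genes. The remaining names, among them sites chosen for the pentamer run or the 9-base stretch, were chosen after their values were seen. Mice were separate animals.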

Additional observations from a re-analysis of the deposited data

Results flagged for a closer look

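In the HFD group 1 liver stood apart from the other 4 in 2 measures, by the gap to its nearest neighbour over the range of the group. HFD liver 5 had 61.1% of its peaks at a q-value of at most 0.05, against 41.7% to 46.3% in the others. HFD liver 1 had 61.8% of its peaks outside genes, against 57.7% to 58.8%. These were 2 of 47 groups of values tested, and chance alone marks about 1 group in 20.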

How the results depend on the processing

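Most values kept their direction and their side of the threshold: 153 of 192 recomputed values that answer a comparison did, a number that includes the Fisher and paired tests, which had little or no room to pass. The share of peaks seen in another library turned around when lists were made alike, to -1.64 points with q-values of at most 0.05, -13.0 with fold enrichment of at least 5 and -2.18 with lists of equal length, and the median fold enrichment to -0.0374, -0.0114 and -0.344. The share of DR1 matches turned to 0.451, 1.39 and 0.484 points under the same settings and to 0.0149 with at most 1 mismatch. The share of tandem repeats, added later, turned to -3.22 points at fold enrichment of at least 5. The causes were not tested. Lost sites numbered 8, 12 and 9 under the 3 settings, and 0 at 4 of 5 livers and 45 with at most 1 liver of the other group allowed. Gained sites numbered 0 at fold enrichment of at least 5, 1 without sites of high pileup, 0 at 4 of 5 livers and 13 with 1 liver of the other group allowed.

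Leaving out each liver in turn gave 0 to 8 gained sites (8 without Control liver 2, 0 without HFD liver 1) and 3 to 30 lost sites (3 without Control liver 3, 5 without Control liver 4, 9 without Control liver 2, 14 without Control liver 1). It gave differences of -1.92 to -1.01 in log2 number of peaks, -1.83 to -0.872 in log2 covered bases, 6.17 to 12.9 points in the share of peaks seen in another library, 1.96 to 3.67 points in the share outside genes and -0.263 to 0.107 points in DR1 matches. Without Control liver 1 peaks, covered bases and sharing passed the threshold (exact permutation adjusted p = 0.0212), and without Control liver 3 sharing and the share outside genes did (exact permutation adjusted p = 0.0317). Sites that differed in strength numbered 0 to 2 across the livers left out, 2 being without Control liver 2, and 2 with pileup scaled to library size.

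Replicate numbers are shared between the diets but name different mice. Deviations of same-numbered livers at the 8 sites called in every library correlated at -0.700, 0.961, 0.806, -0.183 and 0.847. With 8 sites and values of both signs, this does not show whether livers of the same number were handled together. With the replicate number as a block the smallest adjusted p among the 8 library measures was 0.25 in an exact test over 32 sign changes, whose smallest p of 0.0625 cannot pass the threshold and so says nothing about stability, and the limma test called 0 sites.

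Depth limits all of this: with a median pileup of 4 to 6 tags, a site not called in a liver is not shown to be absent there.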
